A study of Mus musculus with 6 samples.

Results

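LIM homeobox genes encode transcription factors that join a pair of zinc-binding LIM domains to a homeodomain. These proteins carry out much of their work in complexes with the cofactor LDB1, and the combination of family members in a newborn neuron helps to set its type, as when Isl1 and Lhx3 act together in spinal motor neurons. Onecut factors are CUT homeobox proteins of liver, pancreas and nervous system that are expressed beside several LIM homeobox genes in developing neurons, and Onecut1 is known to act upstream of Isl1 in spinal motor neurons. The 10 genes described here are Isl1, Isl2, Lhx1, Lhx2, Lhx3, Lhx4, Lhx5, Lhx6, Lhx8 and Lhx9. They were taken by name for their part in neuronal fate, out of 21887 protein-coding genes, and every Onecut3 peak inside them or within 100 kb of their RefSeq span on GRCm38 was used.

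The ChIP-Seq was done on mouse embryonic fibroblasts (MEFs) of C57BL/6 embryos, all of them p53 KO by the study's methods, that carried Onecut3 under a doxycycline-inducible retroviral system. In the ONECUT3-OE cells, 100 ng/mL of doxycycline induced Onecut3, and 3 libraries were recovered with an anti-FLAG antibody, 1 with normal IgG and 1 left as input. The control was 1 anti-FLAG library from cells without doxycycline. Peak lists of the 3 ONECUT3-OE FLAG libraries, called replicates 1, 2 and 3, were analysed. The control FLAG, IgG and input libraries were not analysed here, so what the antibody recovers without Onecut3 and binding of Onecut3 cannot be told apart in the peaks below. MEFs are not neurons, and expression of the 10 genes was not measured in these files. Whether the 3 FLAG libraries are of 1 culture or of several is not given in the labels or methods, and their spread may be technical only.

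Replicates 1, 2 and 3 had 31600, 12856 and 24822 peaks. Of these, 33.6%, 71.0% and 47.7% had q of at most 0.05, so many listed peaks were above that limit. Read depth is unknown, and a typical peak rested on a median pileup of 10 ChIP fragments in replicates 1 and 3, where pileups could be worked out from the authors' values. Overlapping peaks (1 bp or more) were joined across lists into 50844 regions. The 5114 regions present in all 3 lists are called shared. The authors' fold is the ratio of ChIP pileup to expected background at the summit with 1 added to each. Fold scales differ between lists, so a fold is read against its own list, by its percentile among all peaks there. Where a mean fold over the 3 lists is given, it is set only against that of other shared regions. In a bulk ChIP, occupancy in few cells and weak occupancy in all cells cannot be told apart.

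The 10 LIM homeobox genes were reached by 53 of the 69278 peaks, which formed 39 regions. Of these regions, 5 were shared (12.8%, against 10.1% of all regions) and 4 had a peak in 2 lists (10.3%, against 15.9%). The other 30 (76.9%) had a peak in 1 list only, against 74.0% of all regions. The shared regions lay 1 each at Lhx1, Lhx5, Lhx6, Lhx8 and Lhx9, and those at Lhx5 and Lhx9 were inside the gene. The other genes, Isl1, Isl2, Lhx2, Lhx3 and Lhx4, had no shared region in reach. A fold of at least 5 in any list was reached by 3 of the 39 regions, and by 6.62% of all regions (3366 of 50844). These 3 were the shared regions of Lhx6, Lhx8 and Lhx9.

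**Figure D1:**
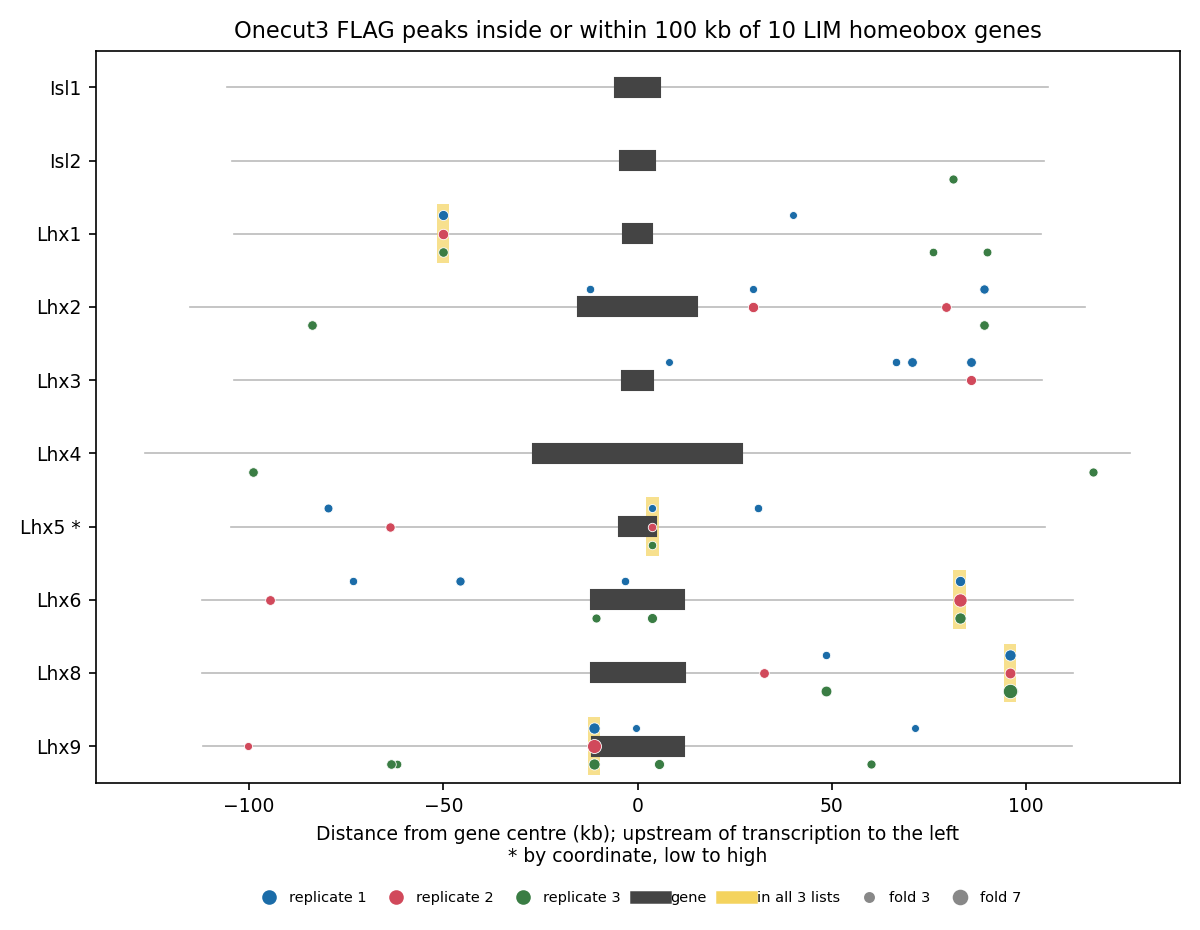
Peaks of the 3 ONECUT3-OE FLAG replicates at the 10 LIM homeobox genes, with distance from the gene centre in kb on the x axis, upstream of transcription to the left (Lhx5 by coordinate). Dark bars are genes to scale, grey lines the 100 kb on either side, circles peaks sized by fold, and yellow marks the 5 shared regions; Isl1 has no peak in its window.

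A shared region within 100 kb or inside was found for 5 of the 10 LIM homeobox genes, against 40.6% of all protein-coding genes. With a reach of 3 kb in place of 100 kb, 2 of 10 had one, against 11.5% of all genes. A region in any list lay in reach of 9 of 10, against 91.0% of all genes, and inside 4 of 10 (Lhx2, Lhx5, Lhx6 and Lhx9), against 37.6%. By list, replicate 1 had a peak in reach of 7 of 10 (all genes 86.0%), replicate 2 of 7 of 10 (all genes 64.5%) and replicate 3 of 8 of 10 (all genes 80.5%). With 10 genes, a step of 1 gene moves a share by 10.0 percentage points, so the shares of the LIM homeobox genes lay within 2 genes of those of all genes under each of these rules. No test was run on them, since the genes were chosen with results of these lists known.

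**Figure D2:**
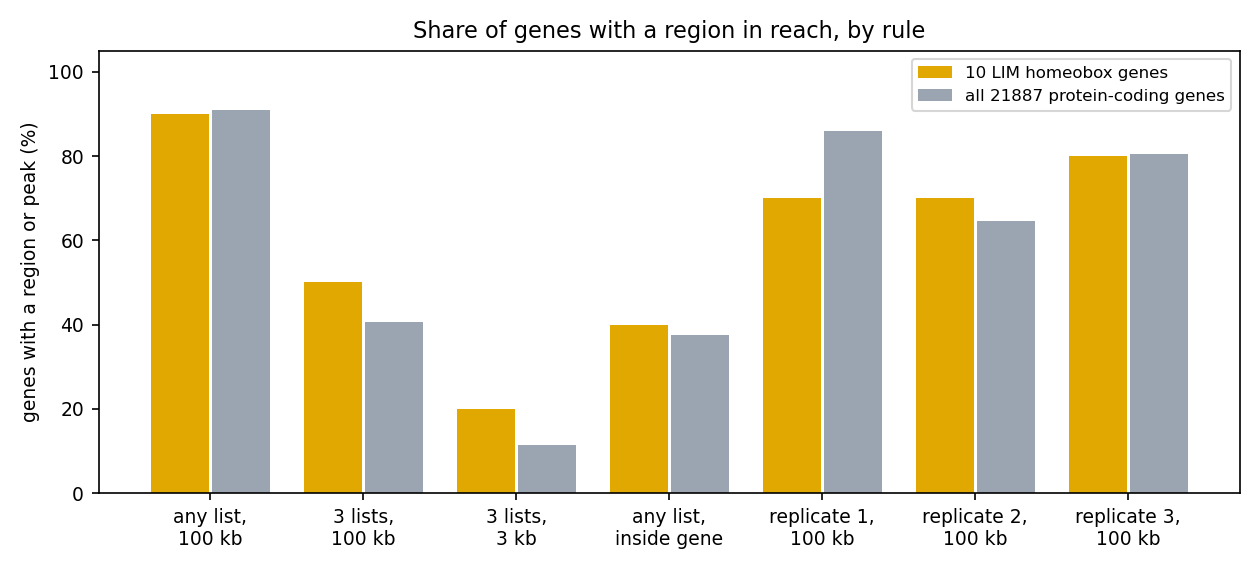
Share of genes in percent on the y axis that have a region or peak in reach, for 7 rules on the x axis, with the 10 LIM homeobox genes on the left of each pair and all 21887 protein-coding genes on the right. The bars of a pair differ most for replicate 1, at 70.0% for the LIM homeobox genes and 86.0% for all genes.

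Density gave the same picture per length. The 10 windows held 17.7 regions per Mb, against 18.7 over the 2722 Mb of the chromosomes. Shared regions came to 2.27 per Mb in the windows and 1.88 per Mb over the chromosomes, a difference that rests on 5 regions. Replicate 1 had 9.54 peaks per Mb in the windows and 11.6 over the chromosomes, replicate 2 had 5.45 and 4.72, and replicate 3 had 9.08 and 9.10. The median LIM homeobox gene had 4 regions in reach, and the median gene of all had 5.

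Lhx9, which acts in dorsal spinal interneurons and in the developing gonad, had the most regions of the 10 genes. Its shared region was the highest of the 5 by ranks of fold averaged over lists. By mean fold, the shared region of Lhx8 was higher (5.75 against 5.71). Lhx9 lies on the minus strand of chromosome 1 from 138825186 to 138848839, and 8 regions lay in its window (23.7% of all genes had 8 or more). Its shared region, from 138848037 to 138848475, was inside the span, with its midpoint 0.583 kb from the upstream end of the RefSeq span and 5.81 kb upstream of the start site in the promoter table. Replicates 1, 2 and 3 gave folds of 4.84, 7.51 and 4.78 there, with q = 5.1e-05, 6.77e-13 and 0.000131. These values put it at percentile 94.2, 98.7 and 91.9 of its lists, and it ranked 594 among the 5114 shared regions when ranks of fold were averaged over lists. All 3 lists therefore placed it in their top 10%. The pileup was 15 fragments in replicate 1 and 14 in replicate 3, over a background at the genome-wide floor of each list (2.30 and 2.14 fragments).

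The other 7 regions at Lhx9 were each in 1 list. Replicate 3 alone had a peak inside the gene from 138831491 to 138831786 with a fold of 3.91 (q = 0.000742), and its background there was 1.56 times the floor. Replicate 1 alone had a peak inside from 138837377 to 138837724 with a fold of 2.42 (q = 1), near the bottom of its list at percentile 11.5. Downstream, replicate 1 had a peak at 59.5 kb with a fold of 2.42 and replicate 3 one at 48.2 kb with a fold of 3.18. Upstream, replicate 3 had peaks at 49.9 and 51.5 kb with folds of 2.87 and 3.50, and replicate 2 had one at 88.4 kb with a fold of 2.51 (q = 1).

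Lhx5 and Lhx1 are close relatives that act in cerebellar Purkinje cells and spinal interneurons, and Lhx1 also in the head organizer of the early embryo. Lhx5 had the weakest shared region of the 5. This region lay inside the gene, on chromosome 5 from 120440268 to 120440633, with its midpoint 8.56 kb from the lower end of a span that runs from 120431886 to 120441457. Replicates 1, 2 and 3 gave folds of 2.53, 2.74 and 2.76, with q = 0.261, 0.122 and 0.232, so no list had it at q of at most 0.05. It was at percentile 15.6, 7.63 and 17.6 of its lists and ranked 5042 among the 5114 shared regions. The pileup of 13 fragments in replicate 1 was no lower than at Lhx1, but the expected background was 4.54 fragments, 1.97 times the floor. In replicate 3 the pileup was 11 over a background of 3.35, 1.56 times the floor. What part this raised background has in the result was not tested. Of the other 3 regions at Lhx5, replicate 1 had those at 74.9 kb on the lower side and 26.1 kb on the higher side, and replicate 2 had the one at 58.9 kb on the lower side, with folds of 3.03, 2.73 and 3.35.

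Lhx1 lies on the minus strand of chromosome 11 from 84517975 to 84525534, and its shared region, from 84571589 to 84572069, lay 46.1 kb upstream with no protein-coding gene nearer. Folds there were 3.94, 4.18 and 3.50 by replicate, with q = 0.00517, 0.00226 and 0.043. They stood at percentile 83.2, 67.8 and 63.3 of their lists, and the region ranked 3033 among the shared ones, so its folds lay at or below the shared median in each list (3.94, 4.18 and 4.05). The pileup was 12 fragments in replicate 1 and 10 in replicate 3, over backgrounds at the floor. The summits of the 3 lists were spread over 152 bp, the widest of the 5 shared regions, and a limit of 100 bp between summits split this region. The other 3 regions at Lhx1 were downstream at 36.0, 72.0 and 86.1 kb, inside Aatf, with folds of 2.42 in replicate 1 and 2.85 and 2.99 in replicate 3.

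Lhx6 and Lhx8 act in the medial ganglionic eminence of the forebrain, Lhx6 in interneurons that move to the cortex and Lhx8 in cholinergic neurons. Both had a strong shared region far downstream that was nearer to another gene. The shared region at Lhx6, on chromosome 2 from 36010914 to 36011295, lay 70.7 kb downstream of the gene and 25.0 kb from Ndufa8, which encodes a subunit of mitochondrial complex I. Replicates 1, 2 and 3 gave folds of 4.08, 6.77 and 4.84, with q = 0.000681, 1.8e-12 and 1.55e-05. These stood at percentile 86.3, 97.6 and 93.0, and the summits lay within 27 bp of each other. It ranked 884 among the shared regions. The pileup was 15 fragments in replicate 1 and 17 in replicate 3, and the background was 1.27 times the floor in both.

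RefSeq promoter windows of GRCm38.p6, from 250 bases before to 50 after a start site, were found for 9 of the 10 genes, with 13 windows in all. None was listed for Lhx5, so what is said of promoters below covers the other 9 genes. Among them, 1 overlapped a peak of any list, and among all 32851 windows 4.51% did. No window of the 10 genes overlapped a shared region, and of all windows 1.32% did. The window with a peak belongs to Lhx6, the only member with 3 start sites in the table, and lies at the middle one. Replicate 3 alone had this peak, from 36104557 to 36104759, with a fold of 3.13 (q = 0.123, percentile 38.6), a pileup of 10 fragments and a background 1.17 times the floor. Its sequence is shown because it is the only promoter of the 10 genes under a peak, 5′ to 3′ along the minus strand (chr2:36104484-36104783, RefSeq), with the 203 bases under the peak in capitals:
Lhx6: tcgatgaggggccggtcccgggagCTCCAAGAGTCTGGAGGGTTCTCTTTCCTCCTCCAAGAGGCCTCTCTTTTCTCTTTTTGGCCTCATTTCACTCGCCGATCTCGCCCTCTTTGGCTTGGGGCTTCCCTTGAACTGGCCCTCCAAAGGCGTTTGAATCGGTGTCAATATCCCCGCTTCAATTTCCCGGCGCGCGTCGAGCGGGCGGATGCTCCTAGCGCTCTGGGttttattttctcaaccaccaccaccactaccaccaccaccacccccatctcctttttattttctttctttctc

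Short motifs were searched on both strands of the promoter windows, and none of 3 was found in the 13 windows of the LIM homeobox genes. The first was ATTGAT, a core that ONECUT factors bind, which 7.54% of all windows held. The second was ATCGAT, a variant of that core, which 0.925% of all windows held. The third was TAATTA, a core of LIM and many other homeodomains, which 5.29% of all windows held. No motif of the 3 contains another, and the second and the third read the same on either strand. A missing match says only that these letters are not in the window. The windows of the 10 genes ranged from 47.0% GC at Lhx8 to 74.7% at the first start site of Lhx2, and the Lhx6 window above had 55.3%.

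The remaining regions at Lhx6 were each in 1 list and spread over the gene and its upstream side. Inside the gene, which spans 36081950 to 36105992 on the minus strand, replicate 3 had a peak from 36090232 to 36090492 with a fold of 3.86 (q = 0.000217). It had 19 fragments, over a background 1.95 times the floor. Replicate 1 had a peak inside from 36097164 to 36097364 with a fold of 2.73 (q = 0.521). Upstream and inside Mrrf, replicate 1 had peaks at 33.3 and 61.2 kb and replicate 2 one at 82.5 kb, with folds of 3.26, 2.68 and 3.62.

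The shared region at Lhx8, on chromosome 3 from 154222480 to 154222826, lay 83.5 kb downstream, inside Slc44a5, a gene of the choline transporter-like family. Folds by replicate were 4.84, 4.46 and 7.96, with q = 5.1e-05, 0.000502 and 3.63e-13, at percentile 94.2, 76.3 and 99.6. It ranked 748 among the shared regions. Replicate 3 had 24 fragments there over a background at the floor, the highest pileup of the 41 peaks at the 10 genes in replicates 1 and 3, and replicate 1 had 15. Replicate 3 also had a separate peak in reach of Lhx8 at 84.3 kb, with a fold of 3.50. A region 36.2 kb downstream of Lhx8, from 154269786 to 154270101 and also inside Slc44a5, was called by replicate 1 at a fold of 2.68 (q = 0.481) and by replicate 3 at 4.46 (q = 0.000656). Replicate 2 alone had a peak 20.1 kb downstream, with a fold of 3.62.

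**Figure D3:**
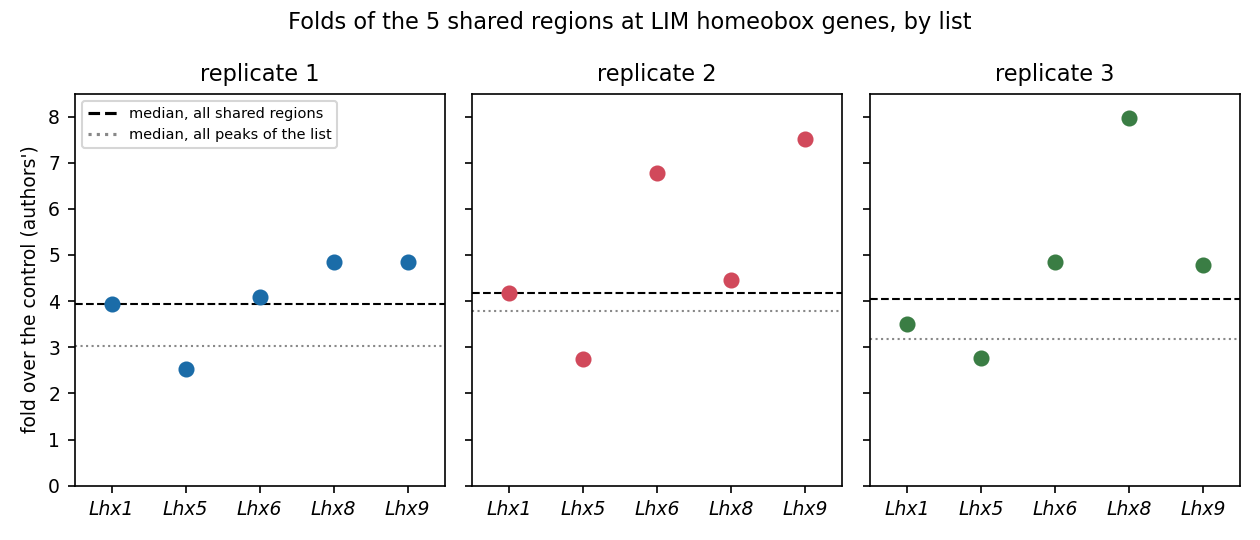
Fold over background, as the authors give it, on the y axis for the shared region of Lhx1, Lhx5, Lhx6, Lhx8 and Lhx9 on the x axis, with 1 panel for each replicate, the dashed line at the median of all shared regions and the dotted line at the median of all peaks of the list. Lhx5 is below both lines in every replicate, and Lhx9 is highest in replicate 2 and Lhx8 in replicate 3.

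Within the lists, the order of the 5 shared regions was stable at the bottom only. Lhx5 was lowest and Lhx1 next in each replicate. At the top, Lhx8 and Lhx9 had the same fold in replicate 1, Lhx9 led in replicate 2 ahead of Lhx6, and Lhx8 led in replicate 3. In replicates 1, 2 and 3 the 5 regions had median folds of 4.08, 4.46 and 4.78, and all shared regions had 3.94, 4.18 and 4.05. Their mean fold over the 3 lists ranged from 2.67 to 5.75, with a median of 5.23 against 4.12. This 5.23 was higher than the median of the 5 regions in any single list. It was the value of Lhx6, whose folds were 4.08, 6.77 and 4.84 by replicate. Widths of the 5 regions ran from 347 to 481 bp, with a median of 382 bp, close to the median of 394 bp for all shared regions.

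**Figure D4:**
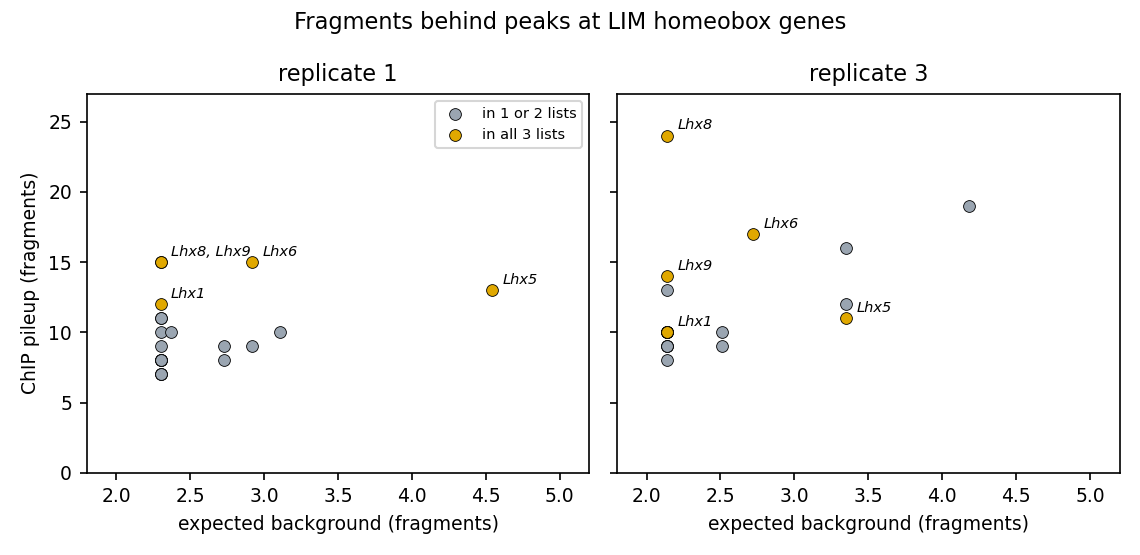
ChIP pileup in fragments on the y axis against expected background in fragments on the x axis for each peak at the 10 LIM homeobox genes, replicate 1 on the left and replicate 3 on the right, with shared regions in yellow and labelled. Lhx5 stands at a background of 4.54 in replicate 1 and 3.35 in replicate 3, and Lhx8 has the highest pileup, 24 fragments, in replicate 3.

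Lhx2 and Lhx3 had no shared region, but each had a region in replicates 1 and 2. Lhx2, needed for the eye, the cerebral cortex and hair follicles, lies on the plus strand of chromosome 2 from 38339271 to 38369737 and had 5 regions. The nearest of those in more than 1 list, from 38384071 to 38384349, lay 14.3 kb downstream with folds of 2.55 in replicate 1 (q = 0.521) and 4.11 in replicate 2 (q = 0.000844). A region 73.8 kb downstream, from 38443497 to 38443853, had folds of 3.33 in replicate 1 (q = 0.0673) and 3.50 in replicate 3 (q = 0.043). Inside Lhx2, replicate 1 alone had a peak from 38342032 to 38342320, with a fold of 2.73 (q = 0.521). Replicate 3 alone had a peak 68.6 kb upstream and replicate 2 alone one 63.9 kb downstream, with folds of 3.50 and 3.63.

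Lhx3 and Lhx4 act in motor neurons and in the pituitary. All 4 regions in reach of Lhx3 (chromosome 2 from 26200212 to 26208249, minus strand) lay downstream, and each had a peak in replicate 1. The region at 81.6 kb, from 26118419 to 26118648 and inside Nacc2, had folds of 3.63 in replicate 1 (q = 0.0201) and 3.90 in replicate 2 (q = 0.00939). The region closest to Lhx3, from 26196084 to 26196284 at 3.93 kb, was in replicate 1 alone with a fold of 2.42 (q = 1) and a pileup of 7 fragments, which it shared with a pair of Lhx9 peaks as the lowest at the 10 genes in replicates 1 and 3. Those at 62.2 and 66.5 kb had folds of 2.73 and 3.63. Lhx4, the longest of the 10 genes at 53.7 kb (chromosome 1 from 155698031 to 155751726), had only 2 regions. Both were in replicate 3 alone, 90.1 kb downstream inside Acbd6 with a fold of 3.18 (q = 0.142) and 72.0 kb upstream with a fold of 3.50 (q = 0.043).

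Isl1 and Isl2, both genes of motor and sensory neurons, were the emptiest. Isl1, on chromosome 13 from 116298270 to 116309688, had no peak of any list in its window, as had every gene outside the 91.0% above. Its nearest region in any list lay 166 kb away and its nearest shared region 604 kb away, and 18.7% of genes were farther from a shared region. Isl2, on chromosome 9 from 55538677 to 55547667, had 1 peak, in replicate 3, 76.5 kb downstream inside Scaper from 55624210 to 55624453. Its fold was 3.18 (q = 0.142), on a pileup of 9 fragments. Isl2 and Lhx4 were the genes with peaks in replicate 3 alone.

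**Figure D5:**
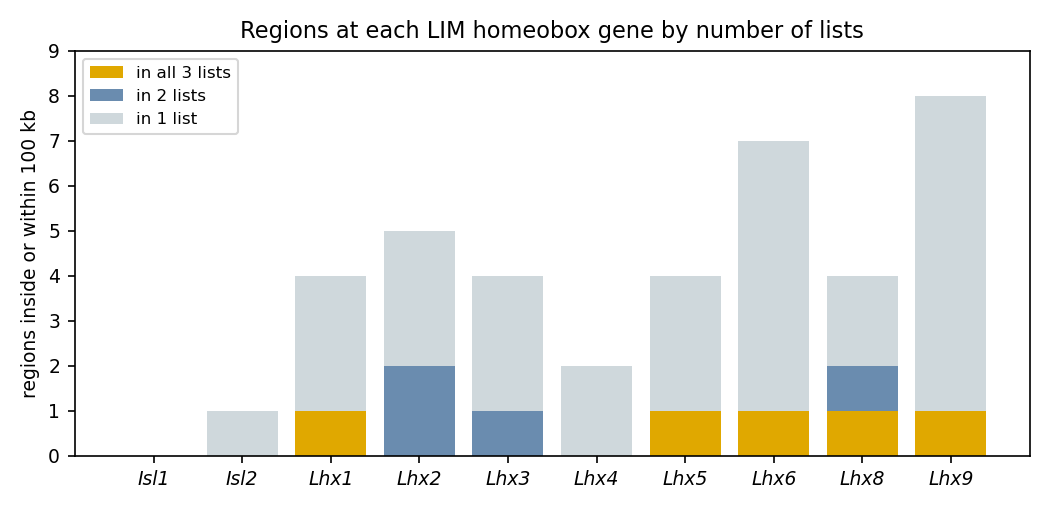
Number of regions inside or within 100 kb of each LIM homeobox gene on the y axis, stacked by the number of lists that have a peak. Lhx9 has 8 regions, Lhx6 has 7, Isl2 has 1 and Isl1 has none, and no gene has more than 1 shared region. Of all protein-coding genes, 59.4% have no shared region in reach and 25.8% have 1.

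Just beyond the limit of 100 kb, Lhx2 had a shared region at 110 kb and Lhx3 one at 129 kb. For Lhx6 and Isl2 the next regions in any list were at 108 and 112 kb. Just inside the limit, the farthest regions used were those at 90.1 kb from Lhx4 and 88.4 kb from Lhx9. Of the 39 regions, 8 were inside a gene of the family, 19 lay downstream and 9 upstream, and the 3 others were outside Lhx5, whose strand was not used. For 15 of the 39 regions (38.5%), and for 3 of the 5 shared ones, the LIM homeobox gene was the nearest protein-coding gene. The exceptions among the shared regions were those at Lhx6 and Lhx8. For regions at other genes, the shares inside, downstream, upstream and nearest were not counted. None of these counts can therefore be called particular to this family.

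Of the 39 regions, 12 were in replicate 1 alone (30.8%, against 39.2% of all regions), 5 in replicate 2 alone (12.8%, against 7.78%) and 13 in replicate 3 alone (33.3%, against 13747 of all 50844 regions). Among these 30 regions, 10 had q of at most 0.05 (33.3%), against 27.2% of all regions in 1 list. Of the 5 shared regions, 4 had q of at most 0.05 in every list, against 57.0% of all shared regions. Median folds of the 30 regions in 1 list were 2.73, 3.62 and 3.18 by replicate. Those of all regions in 1 list were 3.02, 3.36 and 3.13. Peaks of the 10 genes had a background above the floor at 7 of 21 in replicate 1 (33.3%, all peaks 34.2%) and at 7 of 20 in replicate 3 (all peaks 38.2%).

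Genes that belong to or work with the LIM homeobox family were counted by the same rules, for which the shares of all genes were 40.6% within 100 kb and 11.5% within 3 kb. The other LIM homeobox genes listed, Lmx1a and Lmx1b, which act in dopamine neurons of the midbrain, had regions in reach but no shared one within 100 kb. Of 10 LIM cofactor and LIM-only genes, 5 (50.0%) had a shared region within 100 kb and 3 (30.0%) had one inside or within 3 kb, namely Ldb2, Ssbp2 and Ssbp3, which encode a LIM domain-binding protein and a pair of its single-stranded DNA-binding partners. All 4 regions at these 3 genes had mean folds from 3.14 to 3.59, below the median of 4.12, and the genes are long, from 138 to 364 kb. Ldb1, the main cofactor, had a shared region within 100 kb but none within 3 kb. Of 21 neuronal transcription factor genes that act beside the LIM homeobox family, 8 (38.1%) had a shared region within 100 kb, and 2 (9.52%) had one inside or within 3 kb. These shares were not tested against those of all genes. Dlx5, a forebrain interneuron gene, had it at a distance of 0.538 kb (chromosome 6, 6882606 to 6883142), and its folds by replicate were 4.84, 5.29 and 6.05. At Gata2, which acts in spinal interneurons and blood, it lay inside the gene with folds of 2.89, 3.38 and 3.22.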

How the data were processed

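Per the submitters' processing notes, the tools were MACS2 2.1.0, deepTools 3.3.2 and Bowtie2 2.2.6, and the build was GRCm38. The notes give no role for each. The authors' peak names read as calls per sample against the input. The deposited lists give a fold (a ratio over the control), -log10 p-values and q-values, a summit, and a score, which was not used. How reads were filtered is not given in the sources used here. Pileup and background were solved from fold and p under the Poisson law, with the pileup whole, to 0.001 in -log10 p. This worked for 100% of peaks in replicates 1 and 3 but 0.179% in replicate 2, which was left out of pileups.

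Peaks were merged at 1 bp. Spans came from a RefSeq table of GRCm38.p6, and strand and start sites from a RefSeq promoter table; exons were not used. A background above the floor is over 1% higher. No test was run: the genes, lists and rules were chosen with earlier results of these data known. All 10 genes are named, with every shared region, and of the related lists those with one within 3 kb. Alternatives changed the peak threshold, overlap, replicates, window (50 or 10 kb) and the gene a region is given to. The protein comparison planned was not run, since no protein table was used here. The merging and pileup steps were checked on simulated peaks. Scripts ran on Python 3.11.15 with pandas 2.3.3, numpy 2.4.6, scipy 1.17.1 and, for figures, matplotlib 3.10.9.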

Additional observations from a re-analysis of the deposited data

How the results depend on the processing

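Of 51 values recomputed under the alternatives, 26 stayed within 1.5 times the main count or within the spread between lists (0.35 for the median fold) and 25 did not. With a -log10 q of at least 5, the LIM homeobox genes had 0 shared regions and 3 regions in any list. So 0 genes had a shared region within 100 kb or within 3 kb. The counts were the same with a fold of at least 5. At these thresholds no share of all genes was counted, so the counts cannot be read as particular to these genes. At q of at most 0.05, 4 of the 5 shared regions stayed, without that of Lhx5 (57.0% of all shared regions had such a q in every list). So 1 gene had one within 3 kb, and 18 regions stayed in any list. Beside this gene count and the 18 regions, no share of all genes or regions was counted at this q. They cannot be read as particular to these genes either. Within 50 kb there were 3 shared regions at 3 genes, 18 regions in any list and a median fold of 3.87. Within 10 kb there were 2 at 2 genes, 9 regions and a median of 4.19. Given only to the nearest gene, there were 3 shared regions at 3 genes, 15 in any list and a median of 3.87. The median over all shared regions, at any distance from a gene, was 4.12. No share of all genes was counted under these 3 rules, so the falls cannot be read as particular to the LIM homeobox genes. With 1 replicate left out, a region counted as shared if both lists kept had a peak. Shared regions then numbered 5 to 7 at 5 to 7 genes, and 2 genes had one within 3 kb each time. Regions in any list numbered 26 to 34. The median fold was 3.72 to 5.81, each time over a different pair of lists, whose fold scales differ. Lhx2 gained a shared region without replicate 2 and, with Lhx3, without replicate 3. With a replicate left out, no share of all genes was counted. Neither these counts nor these gains can therefore be read as particular to the LIM homeobox genes. An overlap of 50% changed no count. No median fold could be given where no region was shared. No paired analysis was possible because the 3 lists are of 1 condition. With pileups of 7 to 24 fragments, counting error limits each fold.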
